A study of Mus musculus with 6 samples.

Results

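Wide intervals, defined as called regions of at least 500 bp on chromosomes 1 to 19, were examined in 3 peak lists of chromatin immunoprecipitation followed by sequencing (ChIP-seq) against the Flag tag. There were 422 among the 11787 autosomal intervals of replicate 1. Replicate 3 had 185 among 6504, and replicate 4 had 402 among 13418. In all, 1009 of the 31898 distinct intervals of the series met the rule. Members were chosen by width alone, the end minus the start of the interval in the authors' list, after several summits of 1 interval had been reduced to the one with the lowest p. The source was epididymal adipose tissue of mice, taken at week 4 after intraperitoneal injection of AAV2-Otud3-Flag, an adeno-associated virus carrying tagged Otud3. Per the labels, 3 libraries were precipitated with a Flag antibody and 3 were input DNA without antibody, each group numbered 1, 3 and 4. Every library came from mice described as injected, so the controls carry the vector too, and no input values were analysed here. The strain, sex and age of the mice and the promoter of the vector are not given in the labels, which call the source adipocyte although whole tissue was taken. Nor do they say whether the numbers stand for separate animals, so the spread between libraries may be technical. Peak lists hold no expression values, so the label of the tissue was not checked against markers.

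OTUD3 belongs to the OTU deubiquitinases, which cut ubiquitin chains off proteins and so can spare them degradation by the proteasome. It is known to stabilise the nuclear receptor PPARδ, and it has no known domain that reads a DNA sequence, so contact with chromatin would run through other proteins. A peak caller extends reads to the length of the fragments, finds positions with more fragments than the local background and joins neighbouring positions into 1 interval. Narrow intervals are typical of factors bound at single sites. Wide intervals are typical of histone marks, of polymerase on transcribed genes and of stretches where reads from repeated sequence pile up.

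Few intervals, wide or narrower, reached a promoter whose sequence was at hand. Promoter sequences were taken from RefSeq (GRCm38.p6, equal to mm10 on these chromosomes) and run from 250 bases before to 50 bases after a transcription start. There were 20063 such windows, of 16437 protein-coding genes. A wide interval touched 12 of them, 9 in replicate 1, 2 in replicate 3 and 1 in replicate 4. Narrower intervals alone touched 121, 23 and 46 windows in replicates 1, 3 and 4. The lists held 11365, 6319 and 13016 narrower intervals, against 422, 185 and 402 wide ones. The 4 below are shown because their genes are also among the 8 named per list for the lowest p of wide intervals at gene ends. Replicate 3 had only 8 such intervals and replicate 4 had 10. Ccdc27 and Gria4 were thus not picked for strength. The other 8 windows touched by a wide interval, those of Sqstm1 and Ckb among them, are not printed. Capitals mark the GC box (GGGCGG) and the CCAAT box (CCAAT), searched on both strands.
Stk40: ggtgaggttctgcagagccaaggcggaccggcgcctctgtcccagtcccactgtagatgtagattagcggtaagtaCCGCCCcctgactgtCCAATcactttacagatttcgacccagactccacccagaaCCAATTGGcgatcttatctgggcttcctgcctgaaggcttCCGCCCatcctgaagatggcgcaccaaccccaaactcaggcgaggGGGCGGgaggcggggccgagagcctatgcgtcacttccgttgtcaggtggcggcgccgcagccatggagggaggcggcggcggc
Cdkn2aipnl: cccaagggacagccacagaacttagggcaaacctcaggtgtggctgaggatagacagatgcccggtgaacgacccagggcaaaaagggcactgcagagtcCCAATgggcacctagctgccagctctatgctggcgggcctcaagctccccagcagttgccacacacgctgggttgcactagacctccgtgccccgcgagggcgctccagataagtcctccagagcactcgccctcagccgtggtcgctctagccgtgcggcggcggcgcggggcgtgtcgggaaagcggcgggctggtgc
Gria4: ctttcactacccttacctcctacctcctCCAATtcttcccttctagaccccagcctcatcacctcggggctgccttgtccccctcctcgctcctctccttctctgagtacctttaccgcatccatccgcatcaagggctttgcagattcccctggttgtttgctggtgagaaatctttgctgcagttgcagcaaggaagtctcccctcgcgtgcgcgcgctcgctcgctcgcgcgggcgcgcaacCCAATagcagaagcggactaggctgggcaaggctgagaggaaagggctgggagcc
Ccdc27: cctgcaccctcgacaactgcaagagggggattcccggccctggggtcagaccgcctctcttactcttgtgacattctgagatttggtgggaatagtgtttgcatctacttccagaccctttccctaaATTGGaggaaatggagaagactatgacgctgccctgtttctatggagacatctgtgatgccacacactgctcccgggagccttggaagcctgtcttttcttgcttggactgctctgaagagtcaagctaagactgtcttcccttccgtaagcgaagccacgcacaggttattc

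The Stk40 window (chr4:126103707-126104006, plus strand) was covered over all 300 bases by a wide interval of replicate 1. It held 3 GC boxes and 3 CCAAT boxes, of which 2 overlap on opposite strands. The Cdkn2aipnl window (chr11:51967381-51967680, plus strand) was also covered whole in replicate 1 and held 1 CCAAT box. In replicate 4, 238 bases of the Gria4 window (chr9:4796185-4796484, minus strand), with 2 CCAAT boxes, lay in a wide interval. In replicate 3, 282 bases of the Ccdc27 window (chr4:154042628-154042927, minus strand), with 1 CCAAT box, did so. Their GC content was 62.7%, 65.7%, 59.7% and 52.0% in that order, against a median of 57.0% over all windows. Of the 12 windows touched by a wide interval, 6 held a GC box and 8 a CCAAT box, and 47.0% and 38.1% of all windows did. In the 189 windows touched only by narrower intervals, these shares were 52.9% and 30.7%. The median GC content there was 58.7%, and 61.7% in those of replicate 1. A TATA box (TATAAA) stood in 2 of the 12, against 12.7% of all. The AP-1 site (TGANTCA, 7.06% of all windows), the E-box (CACGTG, 7.89%), the cAMP response element (TGACGTCA, 2.30%) and the direct-repeat PPAR element (0.0449%) stood in 0 of the 12. The 12 windows are too few to read a difference from these shares.

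Wide intervals formed the upper tail of the widths, without a separate mode. The narrowest width was also the commonest in each list, 245, 251 and 235 bp in replicates 1, 3 and 4, so a wide interval was roughly a pair of minimal intervals or longer. Wide intervals made up 3.58%, 2.84% and 3.00% of the autosomal intervals and 7.15%, 5.29% and 5.99% of the bases these covered. Their median width was 561, 551 and 552.5 bp, and 135, 44 and 110 of them reached 600 bp. Only 3, 0 and 4 reached 1000 bp. Just inside the limit, the 84, 46 and 87 intervals of 500 to under 520 bp had a median fold of 3.41, 3.00 and 3.12. Just outside it, the 144, 60 and 113 intervals of 480 to under 500 bp had a median fold of 3.34, 3.04 and 3.04.

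**Figure D1:**
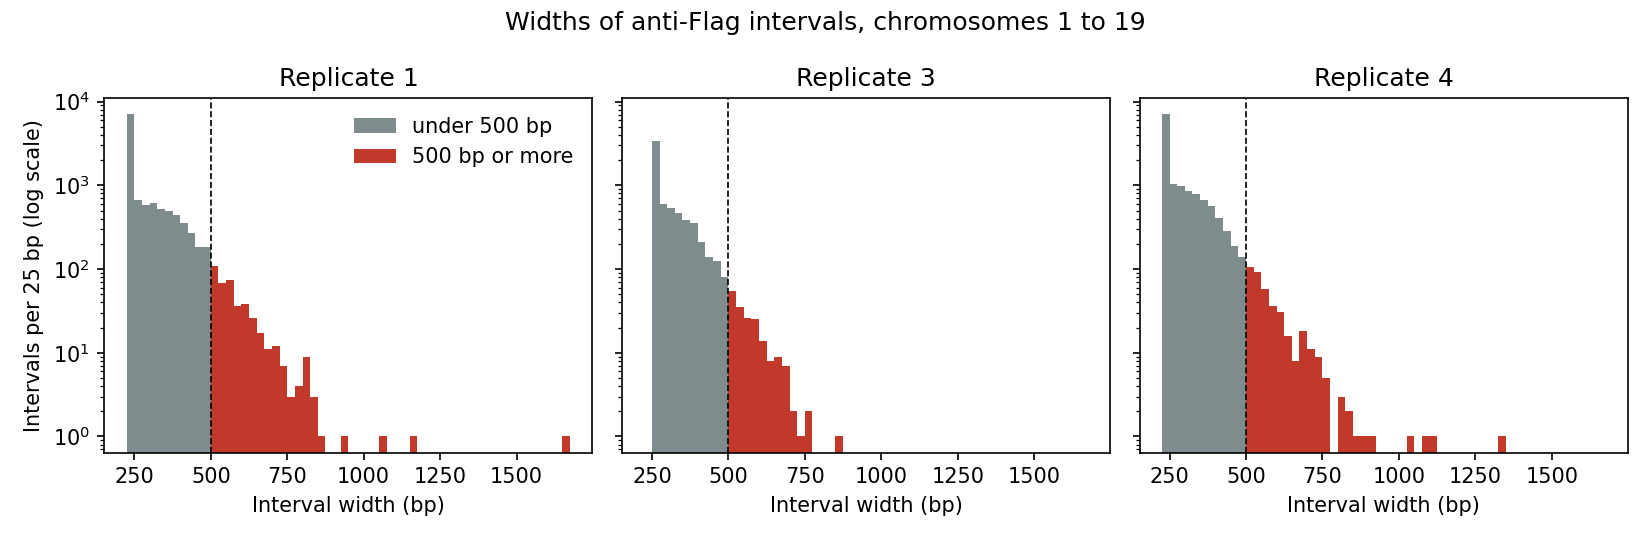
Number of intervals per 25 bp of width (log scale) in the 3 anti-Flag lists, with the limit of 500 bp as a dashed line. Counts fall steadily across the limit in every list, and the median width of wide intervals was 561, 551 and 552.5 bp in replicates 1, 3 and 4.

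Most wide intervals rested on few fragments, as narrower ones did. The number of fragments at a summit was computed from the caller's fold enrichment and p, and a whole number matched within 0.001 on the log10 scale for 100% of intervals. Median fragments were 4, 7 and 5 in wide intervals and 4, 6 and 5 in narrower ones of replicates 1, 3 and 4. Median fold was 3.45, 3.13 and 3.26 against 3.20, 3.00 and 2.99. Fold and p enter the calling of an interval and hence its width, so these values are given as a description. With 3 to 7 fragments behind most summits, each fold carries a large counting error. A q of at most 0.05 was held by 6, 2 and 7 wide intervals, and by 0.331%, 0.323% and 0.432% of all autosomal intervals. Several summits in 1 interval occurred in 4, 4 and 3 wide intervals and in 0 narrower ones.

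A small second set of wide intervals had very many fragments and little enrichment. At least 50 fragments lay at the summit of 5, 3 and 7 members, with folds from 1.28 to 1.56, from 1.28 to 1.35 and from 1.36 to 1.72 in replicates 1, 3 and 4. All 15 were over 100 kb from a protein-coding gene. Of these, 3, 2 and 6 lay in 2 blocks where all 3 lists overlap, between 98662218 and 98667326 on chromosome 2 and between 3000207 and 3035273 on chromosome 9. In replicate 1 the other 2 lay on chromosome 17 on Rn18s-rs5, a sequence related to ribosomal RNA and annotated as a pseudogene, at 39846482 to 39847195 (80 fragments) and 39847532 to 39848370 (74 fragments). On chromosome 14 the other members were one of replicate 3 at 19415770 to 19416378 (fold 1.28, 240 fragments) and one of replicate 4 at 19416927 to 19418260 (fold 1.61, 255 fragments). The share of summits over 100 kb from genes and the overlap between lists are therefore also given without such members or without the blocks.

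**Figure D2:**
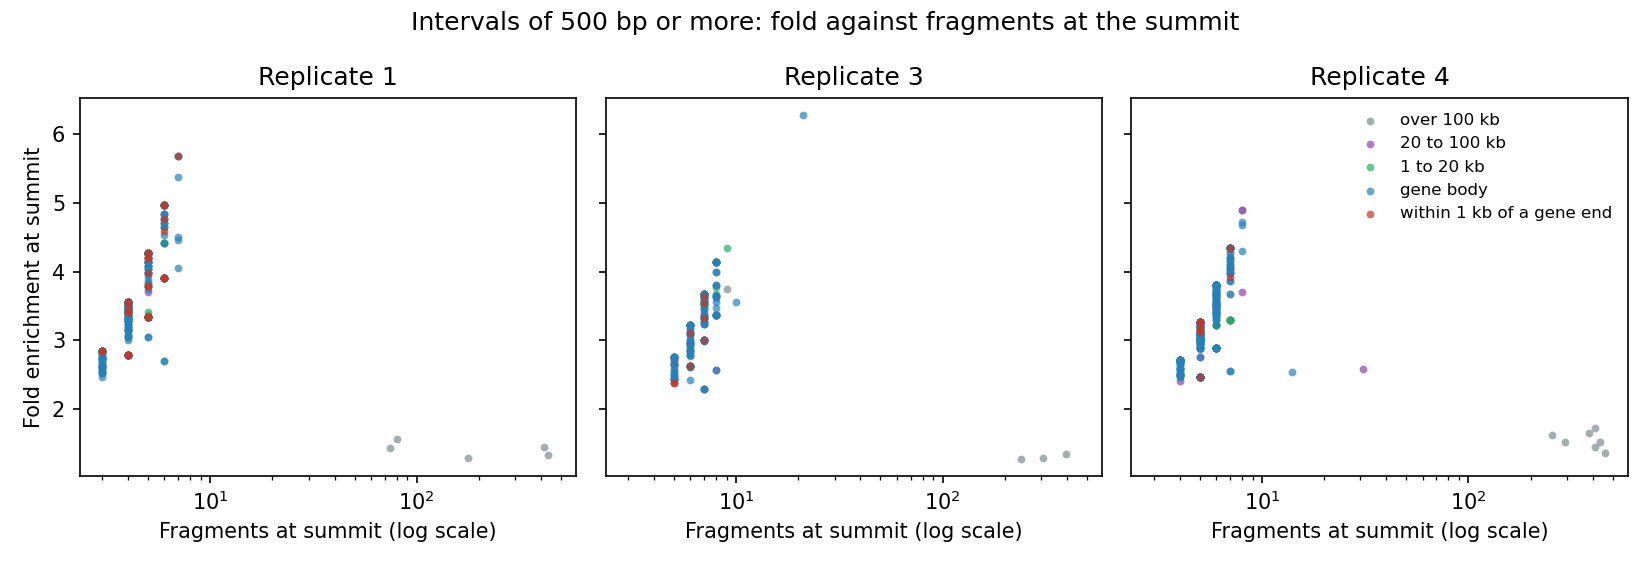
Fold enrichment against fragments at the summit (log scale) for each wide interval, 1 panel per replicate, coloured by place relative to genes. Points below 50 fragments run from 3 to 31, and the points at 50 or more fragments, all over 100 kb from a gene, have folds of 1.28 to 1.72.

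Summits of wide intervals lay inside gene bodies somewhat more often than those of narrower intervals in all 3 libraries. A gene body is the annotated span of a protein-coding gene outside the 1 kb windows around its ends, and it held 47.6%, 51.7% and 47.3% of all autosomal summits in replicates 1, 3 and 4. In replicate 1, 219 of 422 wide intervals (51.9%, 95% Clopper-Pearson interval 47.0 to 56.8%) and 47.5% of narrower ones had their summit there. Replicate 3 had 107 of 185 (57.8%, 50.4 to 65.0%) and 51.5%, and replicate 4 had 205 of 402 (51.0%, 46.0 to 56.0%) and 47.1%. The difference was 4.44, 6.34 and 3.85 percentage points, with Newcombe intervals of -0.407 to 9.26, -0.966 to 13.3 and -1.09 to 8.78. Over the libraries it was 4.88 ± 1.30 points (SD, n = 3), higher in 3 of 3 (exact sign-flip permutation test over libraries, two-sided, p = 0.25, adjusted p = 0.333 over 4 comparisons). With 3 libraries the smallest p this test allows is 0.25, and each library's own interval includes 0. Close to the limit the order differed: just inside it (500 to under 520 bp) 42 of 84, 24 of 46 (52.2%) and 44 of 87 (50.6%) summits lay in gene bodies, and just outside it (480 to under 500 bp) 63 of 144 (43.8%), 33 of 60 (55.0%) and 69 of 113 (61.1%) did. The share just outside was thus the higher one in replicates 3 and 4. All intervals quoted cover counting error only.

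Far from genes the order was the other way round, mainly in replicate 1. Over 100 kb from any protein-coding gene, where 15.8%, 15.5% and 20.9% of all autosomal summits lay, were 42 of 422 wide intervals in replicate 1 (9.95%, 7.27 to 13.2%), 26 of 185 in replicate 3 (14.1%, 9.39 to 19.9%) and 83 of 402 in replicate 4 (20.6%, 16.8 to 24.9%). Narrower intervals had 16.0%, 15.5% and 21.0%. The difference was -6.02 points in replicate 1 (Newcombe interval -8.61 to -2.72), -1.45 in replicate 3 (-5.83 to 4.35) and -0.304 in replicate 4 (-4.04 to 3.98). Their mean was -2.59 ± 3.02 points (SD, n = 3, exact permutation p = 0.25, adjusted p = 0.333), so its spread exceeds its size, and without replicate 1 it was -0.880. Against narrower intervals of at least 300 bp alone, the mean was -0.785, with a higher share in 2 of 3 libraries. Among summits under 50 fragments only, the difference was -7.01, -2.72 and -1.58 points in replicates 1, 3 and 4. The mean of these was -3.77 ± 2.86 points (SD, n = 3), and the Newcombe intervals of replicates 3 and 4 still included 0. At 20 to 100 kb from a gene, a class added after the data were seen, the shares were 12.1%, 9.19% and 11.9% in wide intervals and 13.5%, 13.6% and 14.9% in narrower ones.

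**Figure D3:**
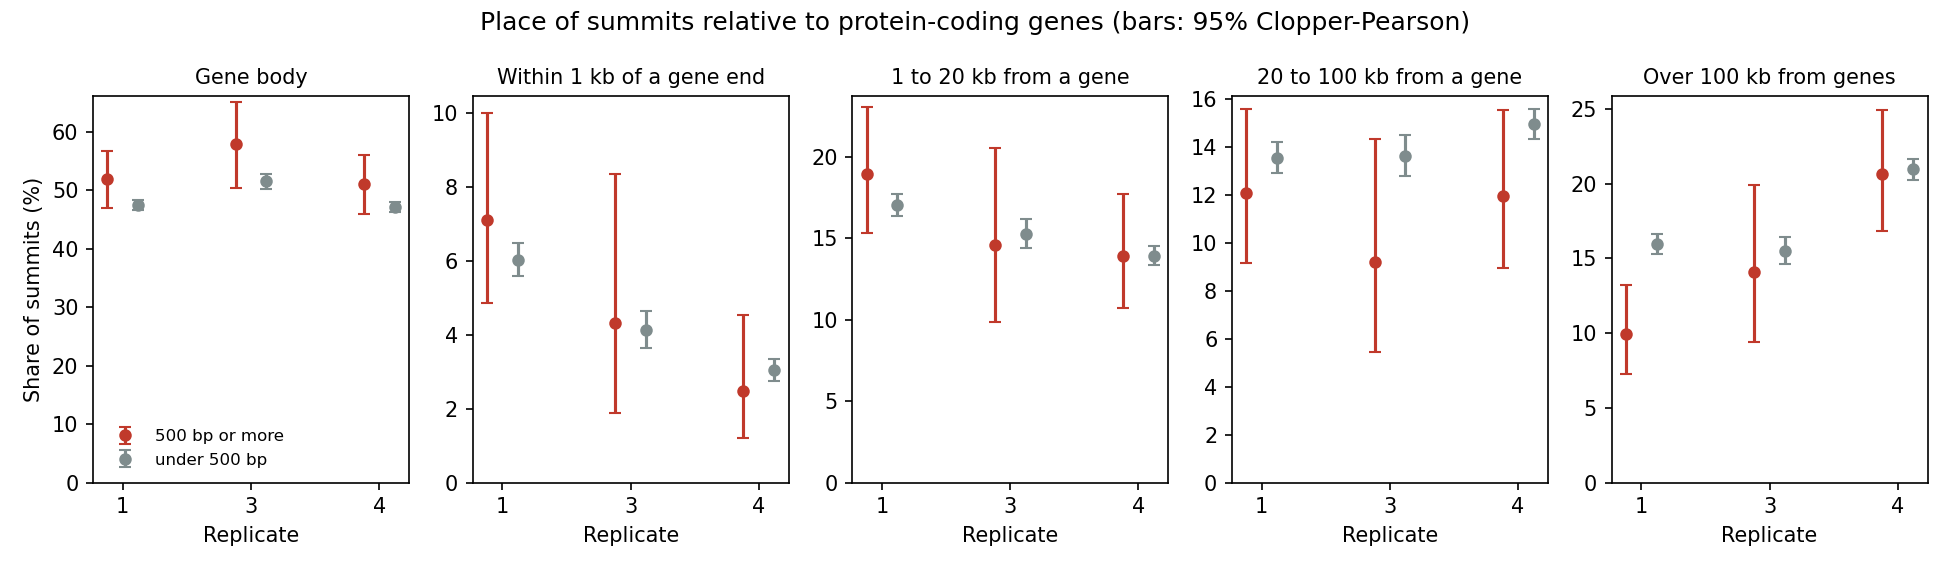
Share of summits in each of 5 places relative to protein-coding genes, for intervals of at least 500 bp and for narrower ones of the same list. Bars are 95% Clopper-Pearson intervals. Gene bodies stand higher for wide intervals in all 3 replicates, but the bars of both kinds overlap there, as they do at gene ends.

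The surroundings of wide intervals were more gene-rich in replicates 1 and 3 and not in replicate 4. Outside the shared blocks, 4.11 protein-coding genes stood on average within 100 kb of a wide summit in replicate 1 and 3.21 within 100 kb of a narrower one. Replicate 3 had 3.58 and 2.97, and replicate 4 had 2.35 and 2.55. The mean difference was 0.440 ± 0.572 genes (SD, n = 3, exact permutation p = 0.5). The nearest other summit of the same list stood at a median of 38.2 kb from a wide and 54.2 kb from a narrower interval in replicate 1, 101.8 and 105.3 kb in replicate 3, and 55.7 and 56.3 kb in replicate 4. The part of gene density in the place of wide intervals was not tested.

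The genes that held wide intervals in their bodies differed in length between libraries. Their median length was 80.6 kb in replicate 1 and 68.3 kb in replicate 3, below the 93.5 and 104.8 kb of the genes that held narrower intervals. In replicate 4 it was 139.1 kb, above the 113.4 kb for narrower intervals. Genes of at least 300 kb held 12.8%, 15.0% and 28.8% of the wide intervals in gene bodies and 18.7%, 20.7% and 23.2% of the narrower ones. The difference between libraries was not tested.

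At gene ends no clear difference was seen, and its size and sign moved with the setting. Within 1 kb of either end of a protein-coding gene, a window that held 6.06%, 4.12% and 3.02% of all autosomal summits, were 30 of 422 wide intervals in replicate 1 (7.11%, 4.85 to 9.99%), 8 of 185 in replicate 3 (4.32%, 1.89 to 8.34%) and 10 of 402 in replicate 4 (2.49%, 1.20 to 4.53%). Narrower intervals had 6.02%, 4.11% and 3.03%. The mean difference was 0.251 ± 0.820 points (SD, n = 3), higher in 2 of 3 libraries (exact permutation p = 0.75, adjusted p = 0.75), and the Newcombe intervals were -1.04 to 3.98, -1.97 to 4.21 and -1.72 to 1.50 points. Without replicate 1 it was -0.169 points. At a width of at least 600 bp it was 2.55 points (0.428 to 6.61 over the libraries), and above the median −log10 p of each list it was 1.30 points, both higher in 3 of 3 libraries. In the list of promoters, 19, 4 and 3 wide intervals had their summit within 1 kb of a transcription start. That table covers 18 of the autosomes and not every gene, so these shares, 4.59%, 2.29% and 0.783% against 3.49%, 1.82% and 1.18% of narrower intervals, are lower limits.

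In replicate 1 the 30 wide intervals at gene ends included those of Dusp1 and Junb. Dusp1, a phosphatase that switches off MAP kinases, had an interval of 579 bp on chromosome 17 at 26507734 to 26508312, its summit 374 bp downstream of the start (fold 5.69, 7 fragments, q = 0.0132). Junb, an AP-1 transcription factor, had one of 651 bp on chromosome 8 at 84977460 to 84978110, its summit 1169 bp downstream of the start (fold 4.98, 6 fragments, q = 0.0977). An interval of 733 bp on chromosome 7 at 45523844 to 45524576 (fold 4.27, 5 fragments, q = 0.342) had its summit near an end of Tulp2 and inside Ppp1r15a, a phosphatase subunit of the stress response, named after its value was seen. The nearest summit of another list to that of Dusp1 stood 59.8 kb away. Junb and Ppp1r15a each had an overlapping interval in replicate 3, of fold 3.23 and 2.89.

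The other gene ends named in replicate 1 were those of genes without a shared role. Stk40, a kinase-like protein, had an interval of 616 bp with its summit 140 bp before the start (fold 4.98, 6 fragments, q = 0.0977). Mafa, a transcription factor of the insulin-producing cells of the pancreas, had a fold of 4.77 (6 fragments, q = 0.0977). H2-Q2, a class I histocompatibility gene, had the widest of the 8, at 870 bp (fold 4.59, 6 fragments). Cdkn2aipnl had 638 bp with its summit 47 bp before the start (fold 4.27, 5 fragments), and Adprh, an enzyme that removes ADP-ribose from proteins, had 711 bp (fold 4.20, 5 fragments). None of these 5 had an overlapping interval in replicates 3 and 4. That was the usual case, since only 1.43% of wide and 0.713% of narrower intervals of replicate 1 outside the shared blocks overlapped another list.

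In replicate 3 the 8 wide intervals at gene ends had folds of 2.37 to 3.65 from 5 to 7 fragments, and none had a q under 0.745. The strongest lay 0.9 kb from Fbxo30, a ubiquitin ligase gene, on chromosome 10 at 11306501 to 11307049 (fold 3.65, 7 fragments). Rnf138, another ubiquitin ligase gene, followed with a fold of 3.55 (7 fragments). Ndufb3, which encodes a subunit of complex I of the respiratory chain, had 533 bp with a fold of 3.10 (6 fragments). Cebpb, a factor that starts adipocyte differentiation, had 554 bp on chromosome 2 at 167688028 to 167688581, its summit 768 bp before the start (fold 2.37, 5 fragments). Tbc1d10c had a fold of 3.33 and Ccdc27 of 3.00, and an interval at the ends of both Nos3, the endothelial nitric oxide synthase gene, and Atg9b had 2.62. No interval of another list overlapped any of those named, as for most wide intervals of replicate 3. Outside the shared blocks 2.19% of them overlapped another list.

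In replicate 4 the strongest of the 10 lay on Actb, the cytoplasmic actin gene, on chromosome 5 at 142903174 to 142903773 (600 bp, fold 4.35, 7 fragments, q = 0.262). Next came 1700066B19Rik with a fold of 3.92 (7 fragments). Gria4, a glutamate receptor subunit gene, had 565 bp with its summit 140 bp before the start, and Pex5, the import receptor of peroxisomes, had 768 bp with its summit 663 bp before it. Their folds were 3.26 and 3.15, from 5 fragments each. Cdrt4, Sap30, Trim2 and Prl6a1 had folds of 3.18 to 3.26, and no interval of another list overlapped any of the 8 named. Outside the shared blocks 1.01% of the wide intervals of replicate 4 overlapped another list. Across the lists, 0 genes had a wide interval at an end in 2 libraries. Only 52 of 20665 protein-coding genes had one in any list, too few for this 0 to show a lack of recurrence.

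Among the widest intervals outside the shared blocks, several lay inside genes. In replicate 1 one of 1162 bp lay inside Midn (fold 3.34) and one of 948 bp at 17.1 kb from Rps3, a ribosomal protein gene (fold 4.98). In replicate 3 the first 3 were 769 bp at 94.9 kb from Negr1 (fold 2.71), 763 bp at 86.1 kb from Smad3, a transducer of TGF-β signals (fold 2.57), and 748 bp inside Rfx2 (fold 3.00). In replicate 4, after the interval of 1334 bp on chromosome 14 given above, they were 1105 bp inside Bcar3 (fold 2.88) and 1041 bp inside Daam1 (fold 3.52). None of the intervals named here overlapped one of another list, which was the usual case for wide intervals.

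Outside the blocks, 6 wide intervals had a q of at most 0.05, 4 in replicate 1 and 1 in each other list, and 5 of them had a high fold. They are named after their values were seen. Beside Dusp1, replicate 1 had one inside Camk2d, a calcium-dependent kinase gene (514 bp, fold 5.69, q = 0.0132), one inside Gm32742 (513 bp, fold 5.38, q = 0.0294) and one 15.6 kb from Hspa13 (584 bp, fold 5.69, q = 0.0132), each from 7 fragments. Replicate 3 had one inside Ano2, a calcium-activated chloride channel gene, on chromosome 6 at 125876720 to 125877382 (663 bp, fold 6.28, 21 fragments, q = 1.14e-07). The nearest summit of replicate 4 lay 2.97 kb from it and that of replicate 1 29.4 kb. The sixth was the interval of replicate 4 on chromosome 14, of fold 1.61.

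Few wide intervals had a summit of another list close by, and how their share compared with that of narrower ones depended on the pile-up blocks. A distance of at most 250 bp between summits was used, since it does not grow with width, and 0.704%, 1.05% and 0.633% of all autosomal summits had such a match in replicates 1, 3 and 4. Among wide intervals 5 of 422 (1.18%, 0.386 to 2.74%), 6 of 185 (3.24%, 1.20 to 6.93%) and 7 of 402 (1.74%, 0.703 to 3.55%) were matched, against 0.686%, 0.981% and 0.599% of narrower ones. The Newcombe intervals of the difference were -0.200 to 2.06, 0.492 to 5.92 and 0.235 to 2.95 points. Its mean was 1.30 ± 0.892 points (SD, n = 3), higher in 3 of 3 (exact permutation p = 0.25, adjusted p = 0.333). Without the blocks and 50 kb either side, 2 of 419 (0.477%), 4 of 183 (2.19%) and 1 of 396 (0.253%) were left, against 0.590%, 0.824% and 0.539%. The share stayed higher in replicate 3, by 1.36 points (Newcombe interval 0.00483 to 4.67), and was lower in replicates 1 and 4, by -0.113 (-0.494 to 1.14) and -0.286 points (-0.537 to 0.883). The mean difference was then 0.321 ± 0.905 points (SD, n = 3, exact permutation p = 1). The 4 of replicate 3 still included the pile-up on chromosome 14, which lies outside the blocks. Among summits under 50 fragments only, replicate 3 had 3 of 182 (1.65%) against 0.808%. That was 0.840 points higher (Newcombe interval -0.275 to 3.93). The mean difference over the libraries was 0.158 ± 0.596 points (SD, n = 3) under this limit. With narrower intervals weighted to the same fragments at the summit it was 0.171 points, and among intervals above the list's median fold it was -0.261 points.

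**Figure D4:**
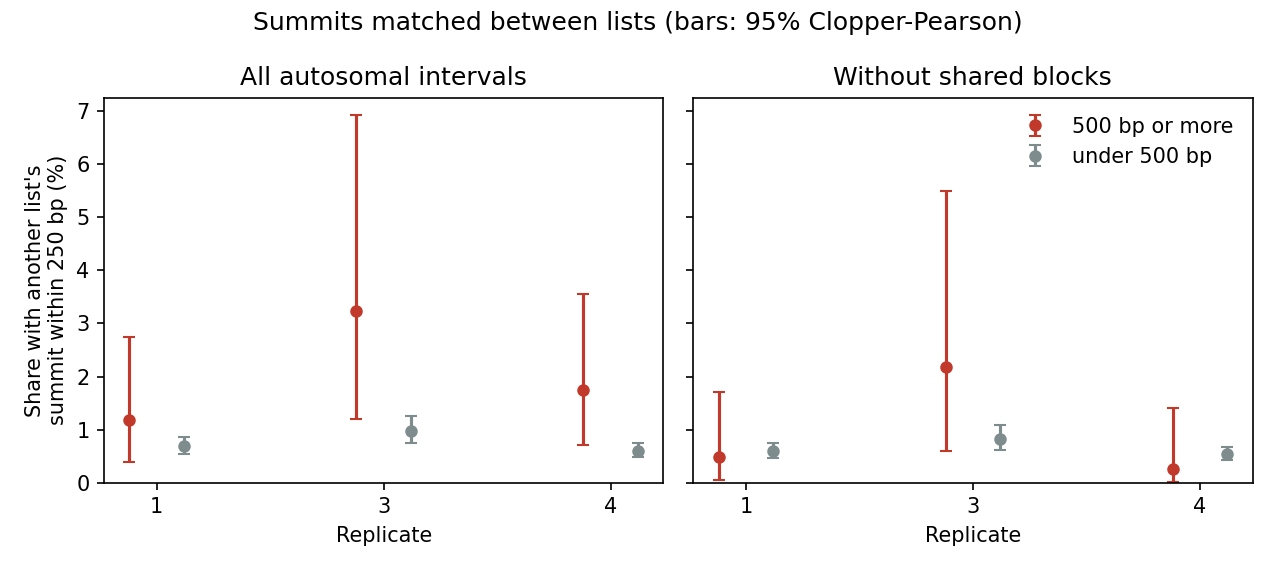
Share of intervals with a summit of another list within 250 bp, for wide and narrower intervals of each replicate, with all autosomal intervals on the left and without the shared blocks on the right. Bars are 95% Clopper-Pearson intervals. The wide shares of 1.18, 3.24 and 1.74% on the left become 0.477, 2.19 and 0.253% on the right.

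Overlap of the intervals themselves, which grows with width, gave 9, 6 and 10 wide intervals touching another list by at least 1 bp (2.13%, 3.24% and 2.49%, against 0.810%, 1.19% and 0.676% of narrower ones). Without the blocks these were 6, 4 and 4, or 1.43%, 2.19% and 1.01%, against 0.713%, 1.03% and 0.615% of narrower intervals. The difference without the blocks was 0.756 ± 0.382 points (SD, n = 3), higher in 3 of 3 libraries (exact permutation p = 0.25). Wide intervals overlapped wide intervals 2 times between replicates 1 and 3, 3 times between 1 and 4 and 2 times between 3 and 4. All of these lay in the blocks, so outside them 0 sites were wide in 2 lists. Wide intervals were 3.58%, 2.84% and 3.00% of the autosomal intervals in replicates 1, 3 and 4. With so few wide intervals that overlap any other list, this 0 is too small a count to describe wide intervals.

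The 7 matched wide intervals outside the blocks were the following. Junb, given above, had a summit of replicate 3 at 0.108 kb, in an interval of 400 bp (fold 3.23, 9 fragments, q = 0.745). An interval of replicate 1 on chromosome 11 at 117962711 to 117963378, 3.18 kb from Socs3, the inhibitor of cytokine signals through STAT3, was 668 bp wide (fold 4.98, 6 fragments), and a summit of replicate 3 lay 0.171 kb away (fold 2.43). Sos2, an activator of Ras, had a wide interval in replicate 3 (582 bp, fold 2.59) and a match in replicate 1 (fold 4.26). Pde2a, a cyclic nucleotide phosphodiesterase gene, had one of 501 bp in replicate 3 (fold 2.99) and a match in replicate 1 (fold 2.53). Nktr had one of 638 bp in replicate 3 (fold 2.43) and a match in replicate 4 (fold 3.15). The last with few fragments lay 154.4 kb from Nr5a2 in replicate 4 (500 bp, fold 3.61), with a match in replicate 1 (fold 2.62). The seventh was the pile-up of replicate 3 on chromosome 14, with a match of fold 1.45 in replicate 4. None of these had a match in both other lists, and their q in the wide list ran from 0.0977 to 1.

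Few genes were hit by a wide interval in any library, and fewer in more than 1. A wide interval lay on or within 1 kb of 252, 119 and 225 of 20665 protein-coding genes, or 1.22%, 0.576% and 1.09%, and of 581 genes (2.81%) in any list. Narrower intervals reached 21.4%, 13.7% and 21.0%. In 2 lists the hit genes were 15 (0.0726%), and in all 3 they were 0. The recurrence of genes hit by narrower intervals was not counted, so these counts cannot be called low or high. The 15 had a median length of 183.6 kb, against 17.5 kb over all genes, and 11 of them reached 100 kb. Some also held many narrower intervals, such as Auts2 with 3, 7 and 10 in replicates 1, 3 and 4. Others held few, such as 4930519G04Rik with 0, 0 and 1. They are named after their values were seen. Atp2b4, a plasma membrane calcium pump gene, Adam19, a metalloprotease gene, Arhgef3, a guanine nucleotide exchange factor gene, Elmo1, a Rac activator gene, Septin9 and Pgm5 were among them, with 1 wide interval in each of 2 libraries, as were Auts2 and Dab1, both over 1000 kb long.

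Of the 8 gene lists, those of immediate-early genes and of adipogenic transcription factors held most wide intervals, and most of these came from replicate 1. The lists were chosen with earlier results of these data known, so the counts describe them and no test was run. Immediate-early and feedback genes, which respond within minutes to growth factors and stress and have a median length of 4.66 kb here, had a wide interval on 6 of 40 (15.0%) in replicate 1, 1 in replicate 3 and 0 in replicate 4. Of all protein-coding genes, 1.22%, 0.576% and 1.09% had a wide interval in replicates 1, 3 and 4. Narrower intervals reached 18, 10 and 7 of the 40, against 21.4%, 13.7% and 21.0% of all genes. The narrower share of the list was thus above that of all genes in replicates 1 and 3. In replicate 4, at 17.5%, it was below. Beside Dusp1 and Junb, the genes hit in replicate 1 were Fosb, an AP-1 factor (679 bp, fold 4.65, 6 fragments, q = 0.129), and, named after their values were seen, Btg2, an antiproliferative gene (fold 4.46), Mcl1, a survival factor of the BCL2 family (fold 3.90), and Atf3, a stress-induced factor (fold 3.34). The 1 of replicate 3 was Cebpb. Replicate 1 also had the lowest background at a position, 0.407 fragments against 1.17 and 0.839, and the part of depth in this difference was not tested.

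Adipogenic transcription factors have a median length of 75.0 kb, against 17.5 kb over all protein-coding genes. Wide intervals lay on 4, 2 and 0 of the 24 (16.7%, 8.33% and 0%) in replicates 1, 3 and 4, against 1.22%, 0.576% and 1.09% of all genes. In replicate 1 these were Creb1, a cyclic AMP response factor (530 bp, fold 4.27, 5 fragments), Ebf1, an early B-cell factor of fat cell precursors (521 bp, fold 3.55, 4 fragments), Nfib, a nuclear factor I gene (561 bp, fold 3.55, 4 fragments), and Ebf3 (fold 2.53, 3 fragments). In replicate 3 they were Klf15 (fold 2.76) and Cebpb. Ebf3 and Klf15 are named after their values were seen. All but that of Cebpb lay in gene bodies, and 0 of the 24 were hit in 2 lists. Narrower intervals reached 17, 11 and 12 of the 24, against 21.4%, 13.7% and 21.0% of all genes.

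The metabolic lists held 0 or 1 gene with a wide interval per library, and with 1.22%, 0.576% and 1.09% of all genes hit, lists of this size cannot show a lower share. Lipid synthesis, storage and lipolysis genes had 1 of 34 (2.94%) in replicate 1 and 0 in the other lists, the 1 being Plin4, a lipid droplet coat gene (561 bp, fold 4.53, 6 fragments, q = 0.186), with its summit 1122 bp downstream of the start. Glucose metabolism and TCA cycle genes had 0 of 30 in every list. Insulin and adipokine signalling genes had 1 of 26 (3.85%) in replicate 1, in the body of Rptor, the mTOR complex scaffold (673 bp, fold 4.20), and 0 in the other lists. Deubiquitinases and ubiquitin genes had 1, 0 and 1 of 37, the one of replicate 4 being Nedd4l, a ubiquitin ligase gene (568 bp, fold 3.77). Among markers of other cells of the tissue, macrophage and lymphoid genes had 0 of 20 in every list, and endothelial and stromal genes had 1 of 20 in replicate 1, in Tek, the angiopoietin receptor (504 bp, fold 4.98). Otud3 itself, on chromosome 4 from 138891063 to 138914026, had 0 wide intervals, and the nearest lay 674.1, 207.5 and 2874 kb away.

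**Figure D5:**
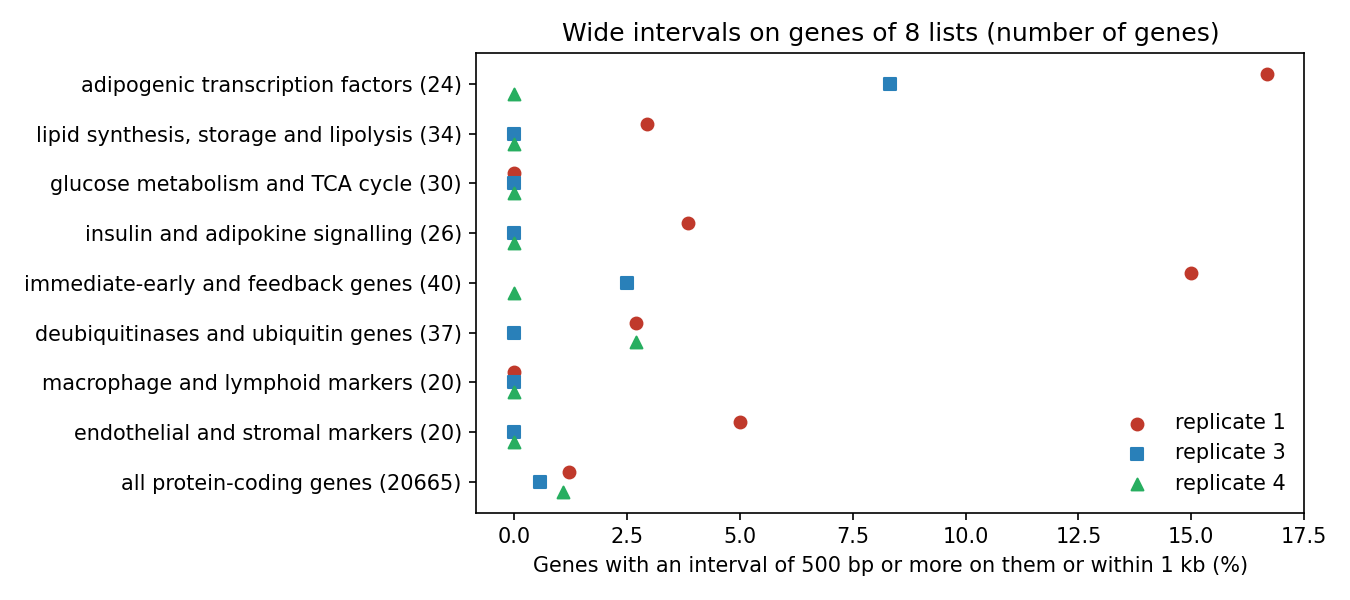
Percentage of genes with a wide interval on them or within 1 kb, for 8 gene lists and for all 20665 protein-coding genes of chromosomes 1 to 19, by replicate. Replicate 1 stands at 15.0% for immediate-early and 16.7% for adipogenic genes against 1.22% over all genes, and replicate 4 is at 0 for both. Narrower intervals, not shown, reached 45.0% and 70.8% of these lists in replicate 1, against 21.4% over all genes.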

How the data were processed

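Anti-Flag ChIP-seq of mouse epididymal fat was deposited as 1 peak list for each of 3 libraries. Tools named in the submitters' processing notes are MACS2 2.1.0, BWA 0.7.12 and fastp 0.19.11, with build mm10. Reads were of 75 bp per the labels, which give 2 conflicting layouts. The peak cut-off and the use of the input are not given in the sources used here. The deposited lists give a fold ratio over local background, a −log10 p-value, a −log10 q-value and a score, all by the authors' caller, and these served to describe, rank or filter intervals within a list.

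Rows were reduced to distinct intervals, and wide ones (at least 500 bp) were compared with narrower ones of the same list by summit position. Gene spans came from RefSeq (GRCm38.p6, 21887 protein-coding genes, 20665 of them on chromosomes 1 to 19). Shares have Clopper-Pearson and Newcombe 95% intervals, which treat neighbouring intervals as independent. The 4 planned comparisons used an exact two-sided sign-flip permutation test over libraries, with Benjamini-Hochberg adjustment. The lists carry no read totals, so the depth is unknown. As a guide to it, the smallest local background in replicates 1, 3 and 4 was 0.407, 1.17 and 0.839 fragments.

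Members and lists were chosen with earlier results of these data known. Named genes were those with a wide interval at an end in at least 2 lists, the 8 of each list with the lowest p at gene ends, the 3 widest, up to 10 with a matched summit, up to 3 from each of 8 gene lists, and Otud3, all outside the shared blocks. Promoters printed were up to 6 of these, and 4 qualified. Some genes that these rules pick are not reported here. The procedures were tested on simulated data. Alternatives were other widths, windows, overlap rules, strengths, chromosomes and leaving out each replicate. Python 3.11.15, numpy 2.4.6, pandas 2.3.3, scipy 1.17.1 and matplotlib 3.10.9 were used.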

Additional observations from a re-analysis of the deposited data

Results flagged for a closer look

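Wide intervals outside chromosomes 1 to 19 were not part of the comparisons. Replicate 3 had 4 of them, all on the mitochondrial genome. Replicate 1 had 2 there. Replicate 4 had 0 there, while 1 of its own lay on an unplaced scaffold. Chromosomes X and Y had 0 in every list.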

How the results depend on the processing

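The gene-body difference kept its direction in 11 of 11 alternatives, from 3.32 to 7.18 points, and leaving out a replicate gave 4.15 to 5.39. The mean difference over 100 kb from genes was below 0 in 11 of 11, from -5.25 to -0.722. In 2 of these, narrower intervals of at least 300 bp (-0.785) and a larger distance limit (-0.722), 2 of 3 libraries were above 0, and leaving out a replicate gave -3.74 to -0.880. The gene-end difference was -0.0603 against narrower intervals of at least 300 bp and -0.169 to 0.650 with a replicate left out. In 13 of 14 alternatives it was above 0, up to 2.55 at a width of at least 600 bp, where it was higher in 3 of 3 libraries. The difference in matched summits was -0.261 above the list's median fold. Its mean was above 0 in 14 of 15 alternatives, up to 4.01 at a width of at least 600 bp, but without the blocks (0.321), under 50 fragments (0.158, also without the blocks) and with weighted fragments (0.171) only 1 of 3 libraries was higher. It was 0.820 to 1.70 with a replicate left out. The causes were not tested. No p could pass 0.05 in any of these, so the p-values say nothing about stability. Wide intervals numbered 6, 2 and 7 in replicates 1, 3 and 4 at a q of at most 0.05, 1414, 741 and 1416 at a width of at least 400 bp, and 135, 44 and 110 at 600 bp. The alternatives for fragments, for 50 fragments and for transcription starts were chosen after seeing the data. No paired analysis was possible because values of the input libraries that share the replicate numbers were not analysed here. Most summits rest on 3 to 7 fragments, so the value of a single site has a large counting error.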

Other observations

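Wide intervals at gene ends in replicate 1 also lay on the genes below, all named after their values were seen. Sqstm1, the autophagy receptor that binds ubiquitin, had one of 649 bp with its summit 67 bp before the start (fold 3.41, 4 fragments, q = 0.651). Ckb, a creatine kinase gene, had 527 bp with its summit 184 bp before the start (fold 3.50, 4 fragments). Dnaja1, a heat shock co-chaperone gene, had 516 bp (fold 3.55), and Cyc1, a subunit of respiratory complex III, had 514 bp (fold 3.34). Stat3, a transducer of cytokine and leptin signals, had 670 bp at the end far from its start (fold 2.79, 4 fragments, q = 0.992). None of these 5 had an overlapping interval in another list, as was usual for wide intervals of replicate 1.

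Some wide intervals overlapped another list with summits more than 250 bp apart. That of replicate 4 in Ino80, a chromatin remodelling ATPase gene, was 540 bp wide (fold 4.09, 7 fragments) and overlapped one of replicate 3 of fold 3.68, their summits 0.313 kb apart. One of replicate 4 lay 2.26 kb from Mrap, the accessory protein of the melanocortin receptor that adipocytes use (557 bp, fold 2.99), and overlapped one of replicate 1 of fold 3.55. One of replicate 1 at the shared end of Tmem88 and Kdm6b, a histone demethylase gene, was 667 bp wide (fold 3.79) and overlapped one of replicate 4 of fold 3.46.

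The share of wide intervals by chromosome ran from 2.24% on chromosome 3 to 5.10% on chromosome 11 in replicate 1, from 1.43% on chromosome 6 to 4.63% on chromosome 9 in replicate 3, and from 2.35% on chromosome 11 to 4.09% on chromosome 3 in replicate 4. Chromosomes 3 and 11 thus stood at opposite ends of the order in replicates 1 and 4.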
